A study of Homo sapiens with 4 samples.

Results

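The miRNAs described here are 10 of the 377 human miRNA assays on a TaqMan array card, those for miR-150, miR-155, miR-146a and miR-223 and for every listed arm of miR-142, miR-146b and miR-342 other than passenger strands marked as such. All are known from blood and lymphoid cells. The RNA came from RPMI8226, a human multiple myeloma line long in culture and a model of malignant plasma cells. There were 4 groups of 1 sample each: hypoxic cells (1% oxygen for 24 h), normoxic cells (20% oxygen for 24 h), and the exosome fraction of the medium of hypoxic and of normoxic cells. Exosomes are small vesicles that cells release, and per the labels' protocols the fraction was precipitated from filtered AIM-V medium with a polymer reagent, which also brings down other material. A single line gives no view of the spread between donors, and no separate cultures are recorded behind a sample.

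A miRNA is a short RNA that guides the silencing complex to messenger RNAs, mainly through its seed, bases 2 to 8 from the 5′ end. A hairpin precursor is cut into a 5p and a 3p arm, either of which can be kept. miR-142 is made in nearly all blood cells and in few other tissues. miR-150 marks mature lymphocytes and is known to repress the transcription factor MYB. miR-155, cut from the BIC transcript, is induced in activated B and T cells, and represses the phosphatase INPP5D. miR-146a is induced through NF-kappaB. Both miR-146a and miR-146b-5p target IRAK1 and TRAF6, which act upstream of NF-kappaB, so miR-146a serves as negative feedback. miR-223 is typical of granulocytes, monocytes and platelets. miR-342 is transcribed with EVL, a gene active in blood cells.

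The sequences of the arms on which the results turn are printed from RefSeq (GRCh38.p14), 5′ to 3′, with the seed in capitals. The miR-142 arms are shown because they come from 1 precursor yet differed in the exosome fraction, the miR-146 pair because it shares a seed, and miR-155 because it stood apart between cells and exosome fraction.
hsa-miR-142-3p: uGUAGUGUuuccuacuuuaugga
hsa-miR-142-5p: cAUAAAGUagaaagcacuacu
hsa-miR-155: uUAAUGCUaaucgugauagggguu
hsa-miR-146a: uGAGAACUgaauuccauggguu
hsa-miR-146b-5p: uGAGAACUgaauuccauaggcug
The miR-142 arms lie on the minus strand at chr17:58331245-58331267 (3p) and chr17:58331283-58331303 (5p), within the spans of the long non-coding genes MIR142HG and TSPOAP1-AS1. miR-155 lies on the plus strand at chr21:25573983-25574006, within MIR155HG. miR-146a lies on the plus strand at chr5:160485372-160485393, within MIR3142HG, and miR-146b-5p on the plus strand at chr10:102436520-102436542, within the span of no other listed gene. miR-146a and miR-146b-5p are equal at 20 of the 22 positions compared. The differences are G18A and U21C, with the base of miR-146a first and positions counted from 1 at the 5′ end. No other pair among the 9 members with a sequence shares a seed.

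Each well gave a threshold cycle (Ct), the number of PCR cycles needed to reach a set fluorescence, so 1 cycle less stands for about a doubling of template. The highest Ct in the table is 35, which was read as not detected. The card detected 155 of 377 miRNAs in hypoxic cells, 162 in normoxic cells, 219 in the hypoxic exosome fraction and 221 in the normoxic exosome fraction. Pre-amplification was applied to the exosome products alone, per the labels' protocols, so a raw Ct cannot be set side by side between cells and exosome fraction. The only repeat wells were those of U6, a small nuclear RNA, at Ct 18.81 ± 0.12 in hypoxic cells and 18.82 ± 0.15 in normoxic cells (SD, n = 4 wells of 1 sample). These give an SD of 0.19 for a difference between 2 wells, called the well spread below. It describes an abundant RNA within a card, not the variation between cultures. Of all detected wells 63.4% lay within 0.1 of a whole cycle, against 20% for an even spread, and among the members it was 20 of 31 wells (64.5%). The share over all assays differed between samples. It was 71.6% in hypoxic and 53.7% in normoxic cells, and 67.1% in the hypoxic and 61.1% in the normoxic exosome fraction. Differences near or below a whole cycle therefore carry this limit, and its part in any result was not tested. With 1 sample in each group no difference was tested, and no p-value is given.

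Most of the members were detected in this line. In cells, 7 of the 10 assays were detected at both oxygen levels, and each of the 7 was below Ct 32. miR-146b-3p, miR-342-3p and miR-342-5p were not detected in either cell sample. In the exosome fraction 8 members were detected in hypoxia and 9 in normoxia. Across the card 41.1% of assays were detected in hypoxic cells, 43.0% in normoxic cells, 58.1% in the hypoxic exosome fraction and 58.6% in the normoxic exosome fraction. The assays were selected as known blood miRNAs, so these shares set the scale and show nothing particular to the members.

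hsa-miR-142-3p had the lowest Ct of the members in cells, 24.97 in hypoxia and 24.95 in normoxia. These Ct values ranked 12th of 155 and 11th of 162 detected miRNAs. In the exosome fraction it stood at Ct 22.41 in hypoxia and 21.95 in normoxia, ranks 39 of 219 and 36 of 221. Its rank was thus lower in the exosome fraction. The other arm, hsa-miR-142-5p, stood at Ct 31.97 in hypoxic and 31.79 in normoxic cells and at 24.92 in the hypoxic and 24.98 in the normoxic exosome fraction. Its ranks were 99 of 155, 92 of 162, 83 of 219 and 85 of 221. Ranks and Ct values of different assays also reflect how efficiently each assay amplifies, so they order signals and not copy numbers.

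hsa-miR-146a, the NF-kappaB feedback miRNA, was at Ct 25.71 in hypoxic and 25.95 in normoxic cells. It was at 18.96 in the hypoxic and 18.75 in the normoxic exosome fraction, the lowest Ct of the members there. It ranked 13 of 155 and 16 of 162 in cells, and 11 of 219 and 12 of 221 in the exosome fraction, near the top in all 4 samples. Its seed partner hsa-miR-146b-5p came later, at Ct 29.96 in hypoxic and 29.65 in normoxic cells, and at 22.94 in the hypoxic and 22.99 in the normoxic exosome fraction. The gap between the pair, miR-146b-5p minus miR-146a, was 4.25 cycles in hypoxic cells, 3.71 in normoxic cells, 3.98 in the hypoxic and 4.24 in the normoxic exosome fraction. The gap needs no normalizer, and it spanned 0.54 cycles over the 4 samples, which exceeds the well spread.

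hsa-miR-150, the lymphocyte miRNA, was at Ct 28.96 in hypoxic and 29.82 in normoxic cells, and at 22.96 in the hypoxic and 22.53 in the normoxic exosome fraction. Its Ct was the lower one in hypoxia among the cells and in normoxia among the exosome samples. hsa-miR-155, the activation-induced miRNA, was at Ct 30.97 in hypoxic and 31.67 in normoxic cells, and at 27.90 in the hypoxic and 27.98 in the normoxic exosome fraction. It sat in the middle of the detected miRNAs, at rank 71 of 155, 87 of 162, 119 of 219 and 128 of 221. hsa-miR-223, the myeloid miRNA, was detected in all 4 samples of this plasma-cell line, at Ct 31.94 in hypoxic and 31.71 in normoxic cells, and at 25.95 in the hypoxic and 25.55 in the normoxic exosome fraction. Its cellular Ct ranked 91st in both cell samples, in the later part of the detected assays.

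The miR-342 arms and miR-146b-3p were the members at or near the ceiling. hsa-miR-342-3p was detected in the exosome fraction only, at Ct 29.98 in hypoxia and 29.96 in normoxia, while hsa-miR-342-5p was at the ceiling in all 4 samples. hsa-miR-146b-3p was seen in a single well, that of the normoxic exosome fraction, at Ct 30.93. Detection in the exosome fraction alone does not place these arms higher there. Relative to each sample's median Ct, the ceiling of the unamplified cell samples lies only 4.03 cycles above the median in hypoxia and 4.09 in normoxia. The exosome wells of miR-342-3p lie 5.99 cycles above the median at both oxygen levels, and that of miR-146b-3p lies 6.97 above. A cellular level higher or lower than that in the exosome fraction would both be possible for these arms.

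**Figure D1:**
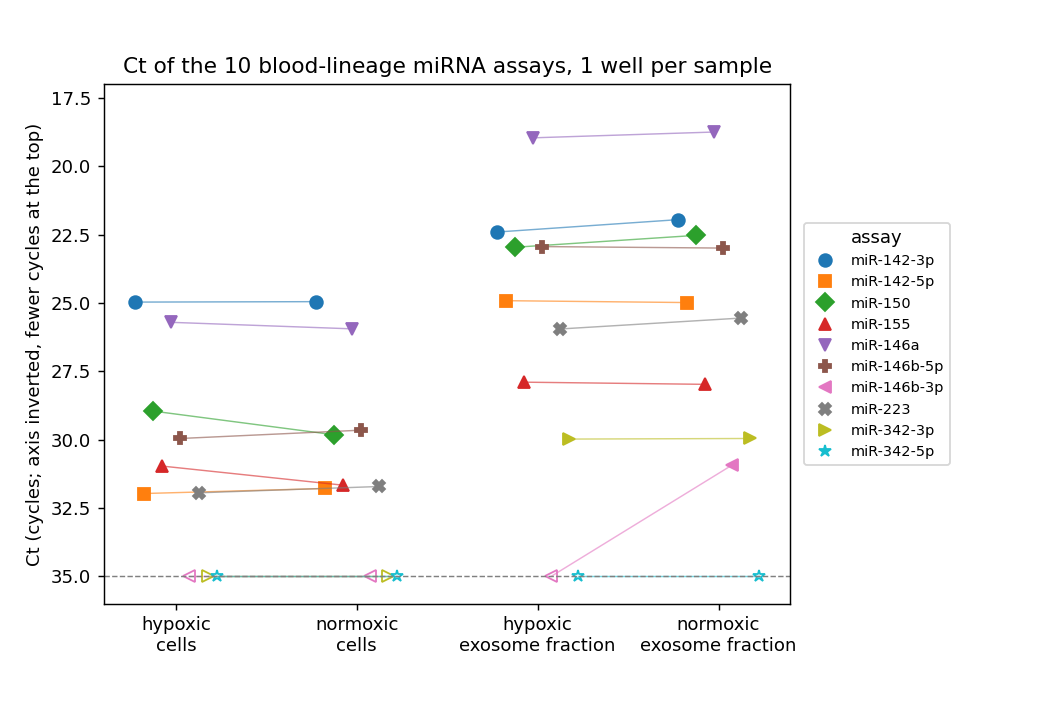
Ct in cycles (inverted axis) of each of the 10 assays in hypoxic cells, normoxic cells, the hypoxic and the normoxic exosome fraction, 1 well per point, with lines joining the oxygen levels; open symbols at the dashed line at 35 were not detected. In cells miR-142-3p and miR-146a lead at 24.95 to 25.95, and in the exosome fraction miR-146a leads at 18.96 and 18.75.

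Within a sample, some neighbours in this order could not be separated by the well spread. In hypoxic cells this held for miR-223 and miR-142-5p, 0.025 cycles apart. In normoxic cells miR-146b-5p and miR-150 lay 0.17 apart, miR-155 and miR-223 0.047, and miR-223 and miR-142-5p 0.073. In the hypoxic exosome fraction miR-146b-5p and miR-150 lay 0.025 apart. No neighbours in the normoxic exosome fraction lay that close. miR-155 came ahead of miR-142-5p by 1.00 cycle in hypoxic and 0.12 in normoxic cells, but behind it by 2.98 cycles in the hypoxic and 2.99 in the normoxic exosome fraction.

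Further lists of miRNAs, by blood lineage or tissue, set this profile in context. Of 16 further lymphoid and B-cell assays, 16 were detected in hypoxic and 15 in normoxic cells, led by miR-19b (Ct 20.98 and 21.02) and miR-17 (Ct 21.95 and 21.88), members of the growth-promoting miR-17-92 cluster. Of 9 myeloid and progenitor assays, 7 were detected in hypoxic and 6 in normoxic cells, led by miR-126 (Ct 25.97 and 25.98) and miR-125b (28.91 and 28.98). Under Ct 32 stood 13 of the 16 lymphoid assays in hypoxic and 14 in normoxic cells, and 4 of the 9 myeloid assays in each. Of the red cell and platelet list only miR-126, which the endothelium also expresses, was detected in cells. miR-451, the defining red cell miRNA, was at the ceiling in 3 samples and at Ct 33.19 in the normoxic exosome fraction, and both arms of miR-486 were at the ceiling in all 4.

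The tissue lists outside blood were detected in part. Of 3 liver assays 2 were detected in each cell sample, miR-192 (Ct 33.95 in hypoxia and 34.55 in normoxia) and miR-194 (32.84 and 34.97), while the liver-defining miR-122 was at the ceiling. Of 5 fibroblast and smooth muscle assays 1 was detected in each, miR-199a-3p (32.97 in hypoxia and 32.50 in normoxia). Of 6 muscle assays 1 was detected in hypoxic cells (miR-133a, Ct 32.96) and 0 in normoxic cells. Of 7 nervous system assays 3 were detected in each cell sample, led by miR-138 (Ct 26.72 in hypoxia and 26.95 in normoxia). Of 7 epithelial assays 6 were detected in each, led by miR-200b (28.64 in hypoxia and 28.96 in normoxia). Under Ct 32 stood 3 of the 7 epithelial and 2 of the 7 nervous system assays in each cell sample. No liver, muscle or fibroblast assay did so in cells. In both cell samples miR-138 and miR-200b came at later cycles than miR-142-3p and miR-146a, but at earlier cycles than the other 5 detected members.

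**Figure D2:**
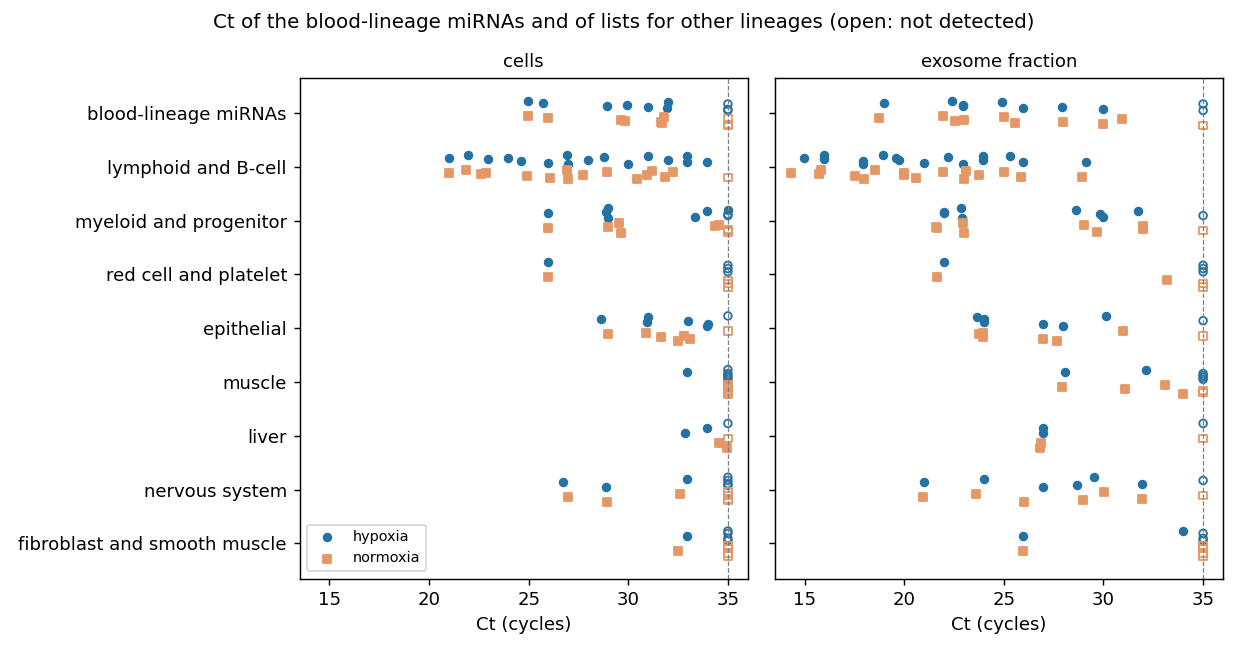
Ct in cycles of the 10 blood-lineage assays and of 8 lists for other lineages in cells (left) and in the exosome fraction (right), with circles for hypoxia and squares for normoxia, 1 well per symbol, open where not detected. The lymphoid list reaches the lowest Ct, 20.98 in hypoxic and 21.02 in normoxic cells, while in cells most muscle and fibroblast assays stand at the ceiling.

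The first comparison asked whether the blood miRNAs differ in hypoxic against normoxic cells with U6 (mean over its wells) for normalization. None of the 7 measured members was past 2-fold, while 13.6% of the 147 miRNAs detected in both cell samples were. The median log2 change of the members was -0.02, against 0.03 over all 147. The members spanned -0.31 to 0.86, inside the middle 95% of the card (-1.19 to 1.31). For scale, miR-210, a classical target of hypoxia-inducible factor, had a log2 change of 3.55.

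The highest changes belonged to the lymphocyte miRNA and the activation miRNA. miR-150 was 1.82-fold in hypoxic over normoxic cells (log2 change 0.86), with Ct 28.96 in hypoxia and 29.82 in normoxia. It ranked 17th of 147 from the top. miR-155 was 1.62-fold (log2 change 0.69), ranked 26th, with Ct 30.97 in hypoxia and 31.67 in normoxia. Both changes exceeded the well spread, 4.43 and 3.57 times, but 17.7% and 25.9% of the 147 miRNAs changed by more than these in either direction. These shares include assays at later cycles than both members, up to near the ceiling. Under Ct 32 in both cell samples, only miR-210, miR-197, miR-520e, miR-19a, miR-221, miR-494 and miR-324-5p changed by more than miR-150. No share was computed under that limit, so the 17.7% and 25.9% do not show how common such changes are at similar Ct. At a 1.5-fold line 2 of the 7 members were higher and 0 lower, while 19% of the 147 were at least that much higher. The hypoxic Ct of both lay within 0.1 of a whole cycle, and the normoxic Ct of neither did. In these bulk extracts a change per cell and a change in the share of cells that make a miRNA cannot be told apart.

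The other members differed by up to 1.60 times the well spread. miR-146a had a log2 change of 0.23 and miR-146b-5p one of -0.31, so this seed pair took opposite signs. Both miR-142 arms were slightly below 0, at -0.02 for 3p and -0.19 for 5p, and miR-223 was at -0.24. With the small nucleolar RNAs RNU44 and RNU48 as normalizer every cellular log2 change moved by -0.15, which left miR-150 at 0.71, miR-155 at 0.54 and miR-146a above 0.

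The second comparison asked the same of the exosome fraction, with the spike-in ath-miR159 as normalizer. Again 0 of 8 measured members were past 2-fold, against 7.39% of the 203 miRNAs detected in both exosome samples. A count of 0 among 8 is not read as particular to the members. The members' median log2 change was -0.06, against -0.07 over all 203. miR-142-3p (-0.40), miR-150 (-0.38) and miR-223 (-0.35) were the lowest, from 1.78 to 2.06 times the well spread, and between 28.1% and 35% of the card changed by more. The hypoxic Ct of each was the later one, by 0.40 to 0.45 cycles. miR-146a was at -0.16, miR-342-3p at 0.03, miR-146b-5p at 0.11, miR-142-5p at 0.12 and miR-155 at 0.13, all within the well spread. The U6 wells were at the ceiling in both exosome samples, so the well spread comes from cells.

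miR-146b-3p was the member with a difference in detection. It stood at Ct 35 in the hypoxic and 30.93 in the normoxic exosome fraction. If a well at 35 stands for a low level, it was at least 16.2-fold lower in hypoxia (log2 change -4.02 at the ceiling). That reading was not tested. An early assay also stood at 35 in 1 sample, miR-520e, at 18.98 in the hypoxic and 35 in the normoxic exosome fraction. miR-146b-3p was among 18 miRNAs on the card seen in the normoxic exosome fraction only, 4 of them at a Ct under 32, and 16 were seen in the hypoxic one only. Its partner arm miR-146b-5p, which was measured in both, was 1.08-fold in hypoxia over normoxia. The bound rests on 1 well per sample. The authors' deposited table lists 0.0617 for miR-146b-3p, and 0.9965 for the 3 members at the ceiling in both cell samples, where nothing was measured.

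**Figure D3:**
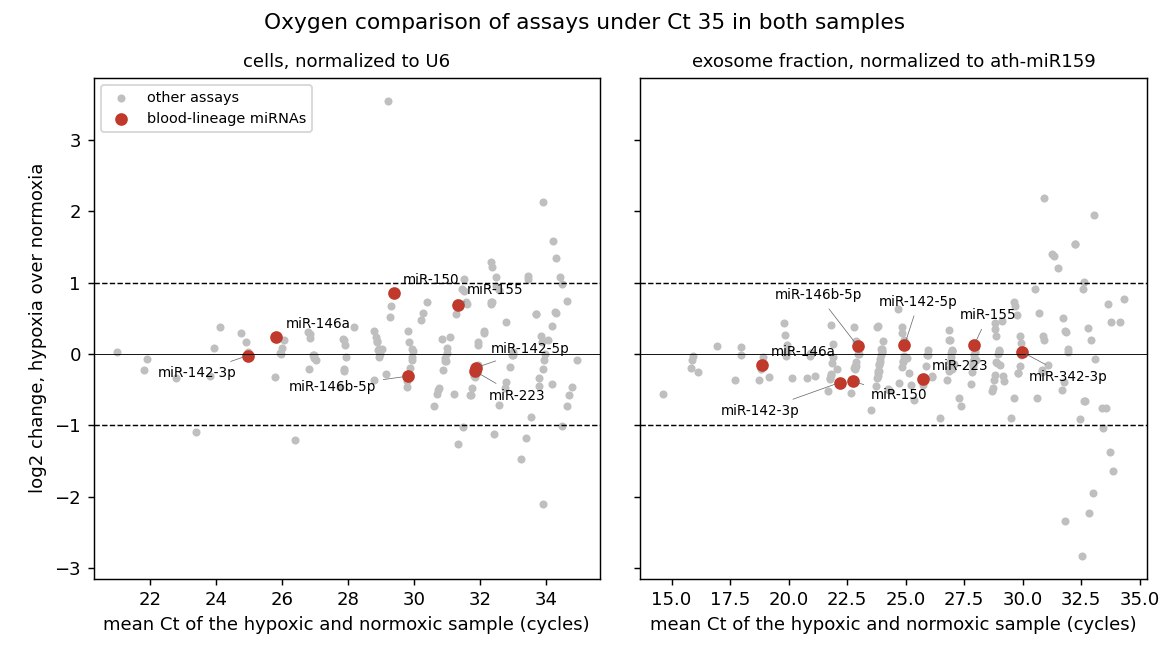
Log2 change, hypoxia over normoxia, against the mean Ct of both samples, in cells (left) and in the exosome fraction (right), for each miRNA under Ct 35 in both; red points are blood-lineage miRNAs, grey points other assays, and dashed lines mark 2-fold. All red points lie between the lines, from -0.31 to 0.86 in cells and from -0.40 to 0.13 in the exosome fraction.

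The third comparison asked how the oxygen response in the exosome fraction differed from that in cells, as a difference of log2 changes over the 138 miRNAs detected in all 4 samples. Of the 7 members in this set, 1 was past 2-fold, against 15.9% of the 138. It was miR-150, with a log2 change of -0.38 in the exosome fraction and 0.86 in cells, a difference of -1.24. The next were miR-155, at -0.56, and miR-146b-5p, at 0.42. The remaining members had -0.39 (miR-146a), -0.38 (miR-142-3p), -0.11 (miR-223) and 0.31 (miR-142-5p). The members' median was -0.38 and that of all 138 was -0.17.

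The fourth comparison set the exosome fraction against cells, after centring each sample on its median Ct over the same 138 miRNAs. Differences of such medians do not centre the differences themselves, and over all 138 the median log2 ratio was -0.83 in hypoxia and -0.44 in normoxia. Values relative to these medians follow each ratio. Of the 7 members, 2 were at least 4-fold lower in the exosome fraction at both oxygen levels and 0 at least 4-fold higher. Over the card 16.7% were lower by that measure and 2.9% higher, and a count of 2 among 7 is not read as particular to the members.

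The members at the low end were miR-142-3p and miR-155. For miR-142-3p the log2 ratio of exosome fraction over cells was -4.42 in hypoxia and -3.95 in normoxia, and -3.59 and -3.51 relative to the median of all assays. For miR-155 it was -3.91 in hypoxia and -3.26 in normoxia, and -3.08 and -2.82 relative to that median. Both were thus below each of the other 5 measured members at each oxygen level.

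The other members lay within 4-fold. miR-142-5p was at 0.07 in hypoxia and -0.15 in normoxia, miR-146a at -0.24 and 0.25, and miR-146b-5p at 0.03 and -0.29. Relative to the median of all assays these 3 were above 0 at both oxygen levels, from 0.15 to 0.90. miR-150 was at -0.99 in hypoxia and 0.34 in normoxia, or -0.16 and 0.79 relative to the median, and miR-223 at -0.99 and -0.79, or -0.16 and -0.35. The signs of these small ratios depend on the centring and are not read as directions, since the mean in place of the median moved each ratio by 0.93 in hypoxia and 0.66 in normoxia. Pre-amplification was done for the exosome products only, and its part in these ratios was not tested.

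**Figure D4:**
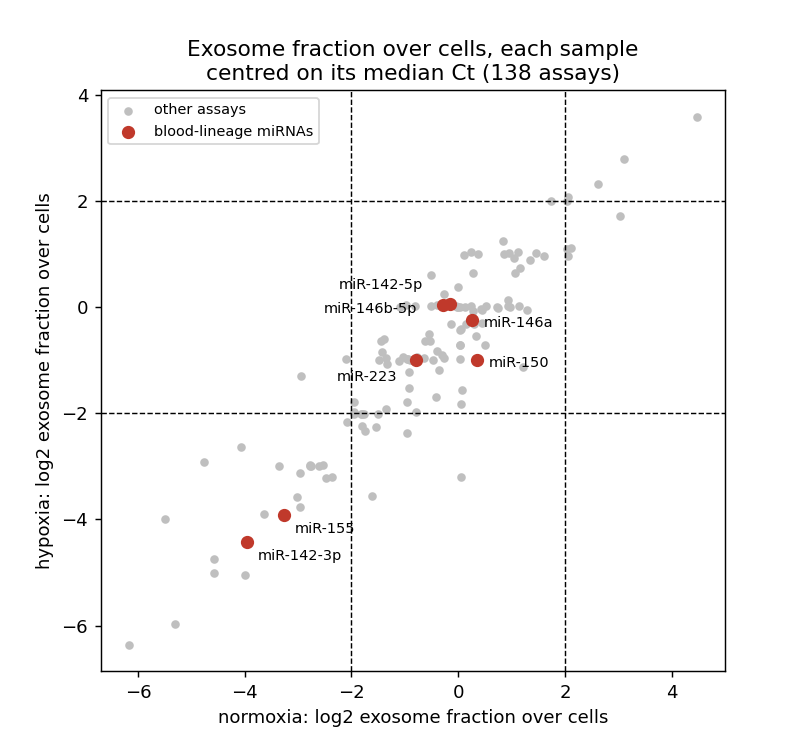
Log2 ratio of exosome fraction over cells in hypoxia (vertical axis) against normoxia (horizontal axis), each sample centred on its median Ct, for the 138 miRNAs detected in all 4 samples; red points are blood-lineage miRNAs, grey points other assays, and dashed lines mark 4-fold. miR-142-3p and miR-155 lie in the lower left corner, and the other 5 members between the lines.

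The arms of miR-142 come from 1 precursor. Their comparison needs no normalizer, because both are read in the same sample. The Ct of 5p minus that of 3p was 2.51 cycles in the hypoxic exosome fraction and 7.0 in hypoxic cells. In normoxia it was 3.03 cycles in the exosome fraction and 6.83 in cells. The 5p arm thus gained on the 3p arm in the exosome fraction, by a log2 ratio of 4.49 (22.5-fold) in hypoxia and 3.80 (13.9-fold) in normoxia. Between oxygen levels the log2 change of the same balance was under 2-fold, at 0.52 in the exosome fraction and at -0.17 in cells. Each of these changes draws on more than 2 wells, so the well spread gives no measure for them.

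Most other precursors with both arms measured shifted the same way, 6 of 8 in hypoxia and 7 of 7 in normoxia. Of these other pairs, 7 of 8 were past 2-fold between exosome fraction and cells in hypoxia, 6 with more 5p and 1 with less, and 4 of 7 in normoxia, all with more 5p. Their median log2 shift was 1.16 in hypoxia and 1.02 in normoxia. With miR-142 counted, 88.9% of 9 pairs were past 2-fold in hypoxia and 62.5% of 8 in normoxia. miR-142 had the highest value among the measured pairs at each oxygen level. miR-193a followed at 3.55 in hypoxia and 2.59 in normoxia, and miR-28 went the other way at -2.22 in hypoxia. The effect of pre-amplification on arms was not tested. miR-146b had both arms under the ceiling in the normoxic exosome fraction only, and miR-342 in no sample, so neither could be compared.

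**Figure D5:**
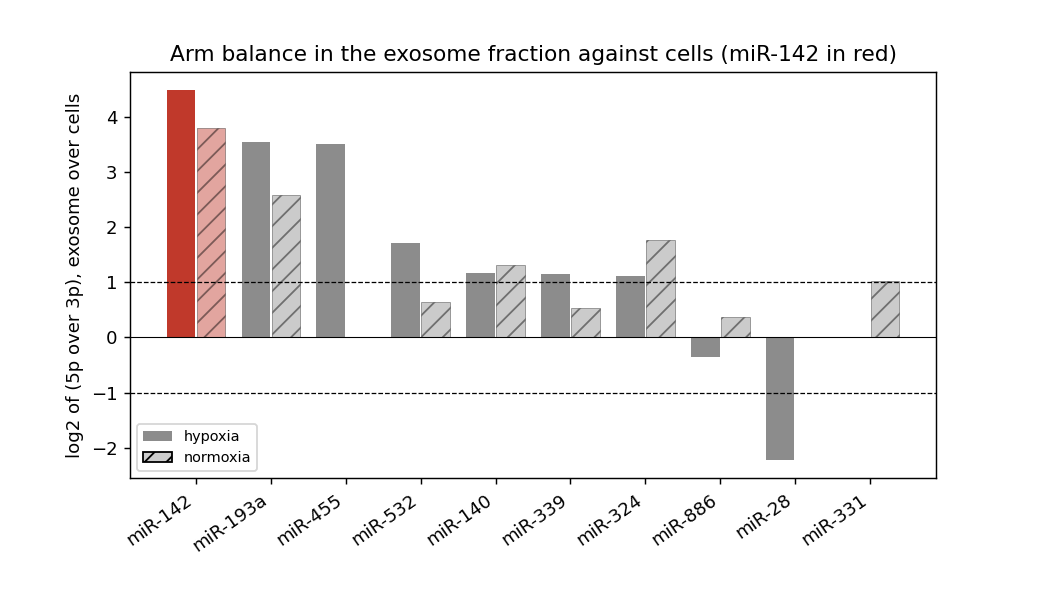
Log2 of the 5p over 3p ratio in the exosome fraction relative to cells, in hypoxia (solid bars) and normoxia (hatched bars), for every precursor with both arms under Ct 35 in the samples compared; miR-142 is red, and dashed lines mark 2-fold. miR-142 has the tallest bars, 4.49 in hypoxia and 3.80 in normoxia; a missing bar means that an arm was at the ceiling.

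The assays most like each member were found by the Euclidean distance between Ct profiles over the 4 samples, centred per sample and per assay. miR-146b-5p was closest to miR-16 (distance 0.035 cycles) and then to miR-142-5p (0.12), and miR-142-5p to miR-16 (0.098) and miR-132 (0.10). Their median distances to all other assays were 1.06 and 1.06. miR-146a was nearest to miR-195 (0.071) and miR-99b (0.11), and miR-223 to miR-500 (0.15) and miR-149 (0.19). miR-150 was nearest to miR-148b (0.24) and miR-455-5p (0.32). miR-142-3p was nearest to miR-331-3p (0.43) and miR-9 (0.50), and miR-155 to miR-26b (0.59) and miR-331-3p (0.64). With 4 samples that share normalization and card, these distances are a description only.

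The other lymphoid and B-cell miRNAs had 0 of 15 measured assays at least 2-fold higher and 3 lower in hypoxic cells, with a median log2 change of -0.02. Over the 147 miRNAs of the card 7.48% were at least 2-fold higher and 6.12% lower, and a count of 3 among 15 is not read as particular to the list. The 3 lower ones were miR-28-3p (-1.13), miR-19a (-1.09) and miR-221 (-1.03). In the exosome fraction 0 of 16 were past 2-fold, and the median was -0.17. The myeloid and progenitor list had 0 of 6 past 2-fold in cells and 1 of 8 in the exosome fraction, miR-130a, at 2.18. Over the card 13.6% of 147 were past 2-fold in cells and 7.39% of 203 in the exosome fraction. Between exosome fraction and cells, 1 of the 15 lymphoid assays was at least 4-fold lower at both oxygen levels, miR-19a (-2.64 in hypoxia and -4.08 in normoxia). In the same set 1 was at least 4-fold higher, miR-92a (2.07 and 2.05). Over the card 16.7% of 138 were lower by that measure and 2.9% higher, and none of these counts is read as particular to a list.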

How the data were processed

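Total RNA of 4 samples was reverse transcribed and run on Human TaqMan miRNA Array A cards, per the labels' protocols, with 1 well per miRNA assay. The first deposited table holds Ct values, not normalized. The second holds the authors' ratio of hypoxia over normoxia, made with Data Assist 3.1 per the series' design text. Log2 ratios recomputed here lay within 0.000356 of it for each miRNA measured in both samples. The sources used here do not say how the ceiling of 35 arose. A Ct carries no count, so no counting interval applies.

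Log2 changes are negative differences in normalized Ct, against the mean of the U6 wells in cells and ath-miR159 in the exosome fraction. An assay was measured when its Ct was under 35 in every sample compared. Lines were set at 2-fold for oxygen and 4-fold for compartments. With 1 sample per group nothing was tested. Alternatives covered normalizer, centring, Ct limit, fold line, ceiling bounds and the authors' ratios. The calculation was tested on simulated data. Python 3.11.15, numpy 2.4.6, pandas 2.3.3 and matplotlib 3.10.9 were used. Members and lists were chosen with earlier results of these data known. Named miRNAs are the members, controls, miR-210, the 2 nearest assays per member, and of each list the leading and called assays. The fixed name list held 9 members, and miR-146b-5p was added by the membership rule after its values were seen. miRNAs named as undetected markers, miR-520e, and those named as changing by more than miR-150 in cells were also chosen after their values were seen. Sequences are from RefSeq (GRCh38.p14), where 9 members matched.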

Additional observations from a re-analysis of the deposited data

Results flagged for a closer look

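miR-150 differed in direction between the compartments. Its log2 change, hypoxia over normoxia, was -0.38 in the exosome fraction and 0.86 in cells, each larger than the well spread of 0.19, and the difference was -1.24. Over the card 15.9% of 138 miRNAs were past 2-fold by this difference. In the exosome fraction 30% of 203 miRNAs changed by more than miR-150, and in cells 17.7% of 147. Both hypoxic Ct values of miR-150 lay within 0.1 of a whole cycle, and neither normoxic one did. Opposite signs also occurred for miR-146a (0.23 in cells and -0.16 in the exosome fraction), miR-146b-5p (-0.31 and 0.11) and miR-142-5p (-0.19 and 0.12). Their changes in the exosome fraction were within the well spread. miR-142-3p, miR-155 and miR-223 kept the same sign in both compartments. The share of the card with opposite signs was not computed. The difference for miR-150 was not tested, because each group is 1 sample.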

How the results depend on the processing

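The samples carry no replicate numbers, so no replicate block was fitted. No member was past 2-fold between oxygen levels under any other normalizer, U6 well left out, Ct limit of 32 or the authors' deposited ratios. The Ct limit removed no member, and the authors' ratios match the recomputed ones, so neither of these alternatives could differ. At a 1.5-fold line 2 cellular members were past that line, and with miR-146b-3p at its bound 1 exosome member was past 2-fold. The members' median log2 change stayed between -0.17 and 0.04 in cells and between -0.16 and -0.06 in the exosome fraction. The response of miR-150 remained the only one past 2-fold with sample medians as normalizer. That comparison also lost no member to the Ct limit of 32. miR-142-3p and miR-155 stayed at least 4-fold lower in the exosome fraction under each centring, between -4.42 and -3.21 and between -3.91 and -2.52 on the log2 scale. Of 122 single values recomputed, 94 moved by less than the well spread and 28, all in the compartment comparison, by more. This tally does not measure robustness. A Ct limit cannot change a member's own value. Each other normalizer or centring shifts all values of a comparison at an oxygen level alike. Depth does not apply to a Ct, and precision is limited by 1 well per sample.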
